A study of Mus musculus with 4 samples.

Results

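Glycolysis and its control by the hypoxia-inducible factors (HIF) were examined through 37 genes, all of them found by symbol among the 34745 genes of the deposited table. They comprise the HIF subunits with the proteins that mark and destroy them, the carriers of glucose and lactate, the enzymes from glucose to lactate with 3 of their regulatory kinases, and a set of hypoxia-responsive genes. RNA was sequenced from splenic CD4+ T cells of C57BL/6 mice that were naive at the start and spent 3 days in culture under conditions polarising them towards regulatory T (Treg) cells. The 2 wild-type libraries bear the numbers 13 and 15. The 2 libraries of the other group bear the numbers 22 and 24, and their genotype is labelled as Setd2 with CD4 cre, that is, with a Cre recombinase driven by a promoter active in the T cell lineage. No age of the mice, allele of Setd2 or culture agent is given, and no label says if replicate libraries stem from different animals. The p-values therefore measure only how these libraries vary, which may be technical variation. Setd2, the histone methyltransferase that trimethylates lysine 36 of histone H3, was the targeted gene.

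Glycolysis turns glucose into pyruvate in the cytosol, and activated T cells send much of that pyruvate on to lactate, which they export. HIF1A and its relative EPAS1 (HIF2A) pair with ARNT and switch on many glycolytic genes. In the presence of oxygen the prolyl hydroxylases EGLN1, EGLN2 and EGLN3 mark the HIF alpha subunits, and VHL then recruits the ligase that leads to their destruction, so that the amount of HIF protein is set largely after transcription. In cultured T cells HIF1A and glycolysis are best known for favouring the T helper 17 fate over the Treg fate.

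Sequencing gave 14599957 to 16030869 counts per library, so that 3 counts correspond to between 0.184 and 0.201 CPM (counts relative to TMM-scaled library size). Setd2 itself had 137 and 146 CPM for wild type, and 137 CPM in library 22 and 113 CPM in library 24 (adjusted p = 0.436). The deleted exons are not named, so its level does not check the label, and the second group is called knockout-labelled throughout. The defining genes of CD4 T cells were abundant in every library, with Cd4 between 986 and 1257 CPM. Foxp3, the Treg transcription factor, measured 242 and 247 CPM for wild type and 31.9 and 75.8 CPM in the knockout-labelled libraries (adjusted p = 0.0233). Il2ra, from the same list of 10 markers, fell from 1193 and 1231 CPM to 828 and 857 CPM (adjusted p = 0.0304). The 10 markers summed to 4981 to 5068 CPM for wild type and 4659 to 4794 CPM in the knockout-labelled group, with 2 lower and 0 higher. Of their fitted values 5 lay above 0 and 5 below. Ikzf2 measured 167 and 165 CPM against 221 and 201 CPM (adjusted p = 0.103). Cd28 measured 406 and 395 CPM against 675 and 512 CPM (adjusted p = 0.0602). Summed markers of natural killer and innate lymphoid cells (7 genes) stood at 36.4 to 41.3 CPM for wild type and 146 to 189 CPM in the knockout-labelled group. Most of each sum was Gzma, at 34.0 and 29.6 CPM for wild type and 112 and 159 CPM for knockout-labelled 22 and 24. Of the 4 tested members 3 were higher, namely Gzma, Klri2 and Klre1. Klrb1c overlapped between groups, with 1.16 and 0.671 CPM against 2.21 and 0.894 CPM (adjusted p = 0.417). Ncr1 had 0 counts in both wild-type libraries and 8 and 3 counts in the others. Summed markers of B cells (8 genes, 1 higher) stood at 228 to 232 and 302 to 344 CPM. Those of CD8 T cells (6 genes, 3 higher and 1 lower) stood at 217 to 287 and 316 to 476 CPM. The 3 higher were Klrd1, Klrc1 and Klrk1, and the lower was Eomes. The CD8 genes themselves overlapped between groups. Cd8a measured 81.0 and 120 CPM for wild type and 113 and 41.2 CPM for knockout-labelled 22 and 24. Cd8b1 measured 43.8 and 62.9 CPM against 69.1 and 37.3 CPM. Markers of myeloid cells (8 genes) summed to 20.1 to 25.3 CPM in all 4 libraries, and markers of red cells and platelets (8 genes) to 6.57 to 8.70 CPM, with none past the test. The part of these cells in the results that follow was not tested, and in bulk RNA fewer cells of a type and less RNA per cell cannot be told apart.

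HIF factors find their targets through the core letters ACGTG or GCGTG, and CACGTG, which contains ACGTG on both strands, is also the site of MYC and other E-box proteins. To show what such a start region looks like, the 200 bases before the start are printed for Hif1a, Kdm3a and Aldoa, which rose, for Slc16a1, which fell, and for Pgk1 and Ldha, classical HIF targets that did not pass the test. Sequences are those of RefSeq on GRCm38.p6, read 5′ to 3′ along the gene, with every ACGTG or GCGTG of either strand in capitals (on the opposite strand these read CACGT and CACGC), and where a gene has several listed starts the one with the most matches is shown.
Hif1a: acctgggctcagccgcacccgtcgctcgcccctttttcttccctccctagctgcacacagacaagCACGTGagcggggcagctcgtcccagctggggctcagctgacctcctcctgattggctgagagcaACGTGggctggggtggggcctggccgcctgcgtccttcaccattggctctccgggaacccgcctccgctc
Kdm3a: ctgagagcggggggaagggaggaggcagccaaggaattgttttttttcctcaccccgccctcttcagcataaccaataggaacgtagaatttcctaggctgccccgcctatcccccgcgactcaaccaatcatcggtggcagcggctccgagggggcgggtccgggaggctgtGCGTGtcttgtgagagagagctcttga
Aldoa: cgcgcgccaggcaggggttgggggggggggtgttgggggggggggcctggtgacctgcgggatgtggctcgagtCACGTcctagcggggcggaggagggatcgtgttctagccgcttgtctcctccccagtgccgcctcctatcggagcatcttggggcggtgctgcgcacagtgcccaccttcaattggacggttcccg
Pgk1: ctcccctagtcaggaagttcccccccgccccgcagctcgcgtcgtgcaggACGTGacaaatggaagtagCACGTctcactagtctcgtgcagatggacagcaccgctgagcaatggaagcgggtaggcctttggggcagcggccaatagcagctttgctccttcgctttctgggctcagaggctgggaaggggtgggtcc
Slc16a1: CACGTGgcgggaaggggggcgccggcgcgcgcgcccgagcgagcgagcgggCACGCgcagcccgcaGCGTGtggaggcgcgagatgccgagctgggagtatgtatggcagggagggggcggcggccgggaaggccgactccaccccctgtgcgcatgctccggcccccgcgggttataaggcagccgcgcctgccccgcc
Ldha: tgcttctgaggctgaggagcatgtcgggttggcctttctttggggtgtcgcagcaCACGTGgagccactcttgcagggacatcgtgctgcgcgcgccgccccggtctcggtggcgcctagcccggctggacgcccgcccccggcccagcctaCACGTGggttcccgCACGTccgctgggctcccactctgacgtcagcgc
The stretches lie at chr12:73907667-73907866 (Hif1a, plus strand), chr6:71632918-71633117 (Kdm3a, minus strand), chr7:126799255-126799454 (Aldoa, minus strand), chrX:106186900-106187099 (Pgk1, plus strand), chr3:104638464-104638663 (Slc16a1, plus strand) and chr7:46845604-46845803 (Ldha, plus strand). Hif1a and Slc16a1 hold CACGTG once and Ldha holds it at 2 places, whereas Pgk1 holds ACGTG once on each strand and Kdm3a a single GCGTG at 27 bases before its start.

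Of the 37 genes, 34 had a listed start, with 51 starts in all, some of which overlap. ACGTG or GCGTG stood in the 250 bases before the start at 40 of these 51 starts (78.4%), against 38.6% of all 32851 listed starts. The stricter ACGTG alone stood at 22 starts (43.1%, against 16.6% of all starts), and CACGTG at 6 (11.8% against 6.02%). The median GC content of these windows was 60.4% for the 37 genes and 52.4% for all starts, and its part in the higher share was not tested. By gene, the letters were found for all 3 matched genes that rose, all 3 that fell and 25 of the 28 that did not pass the test.

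Past the threshold were 7 of the 37 genes, 4 of them higher and 3 lower, and the other 30 were not (edgeR's quasi-likelihood test, Benjamini-Hochberg adjusted p under 0.05 over 13279 genes). Over all genes tested, 5.53% rose and 4.59% fell, or 10.1% together. The genes that rose were Hif1a, Epas1, Aldoa and Kdm3a, and those that fell were Hk1, Slc16a1 and Vegfa. The median log2 fold change of the 37 was -0.08, beside -0.0013 for all genes tested, with 15 fitted values above 0 and 22 below. All 37 passed the filter on low counts. The wild-type and knockout-labelled libraries did not overlap for 25 of the 37 genes (11 higher and 14 lower), which is 67.6% beside 63.8% of all genes (31.1% higher and 32.7% lower). Calls among the 37 were fewer when either wild-type library was left out and more when either knockout-labelled library was left out. Calls over all genes moved the same way. Each of these fits leaves a lone library in a group, so its count of calls was not read as a result about the 37.

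**Figure D1:**
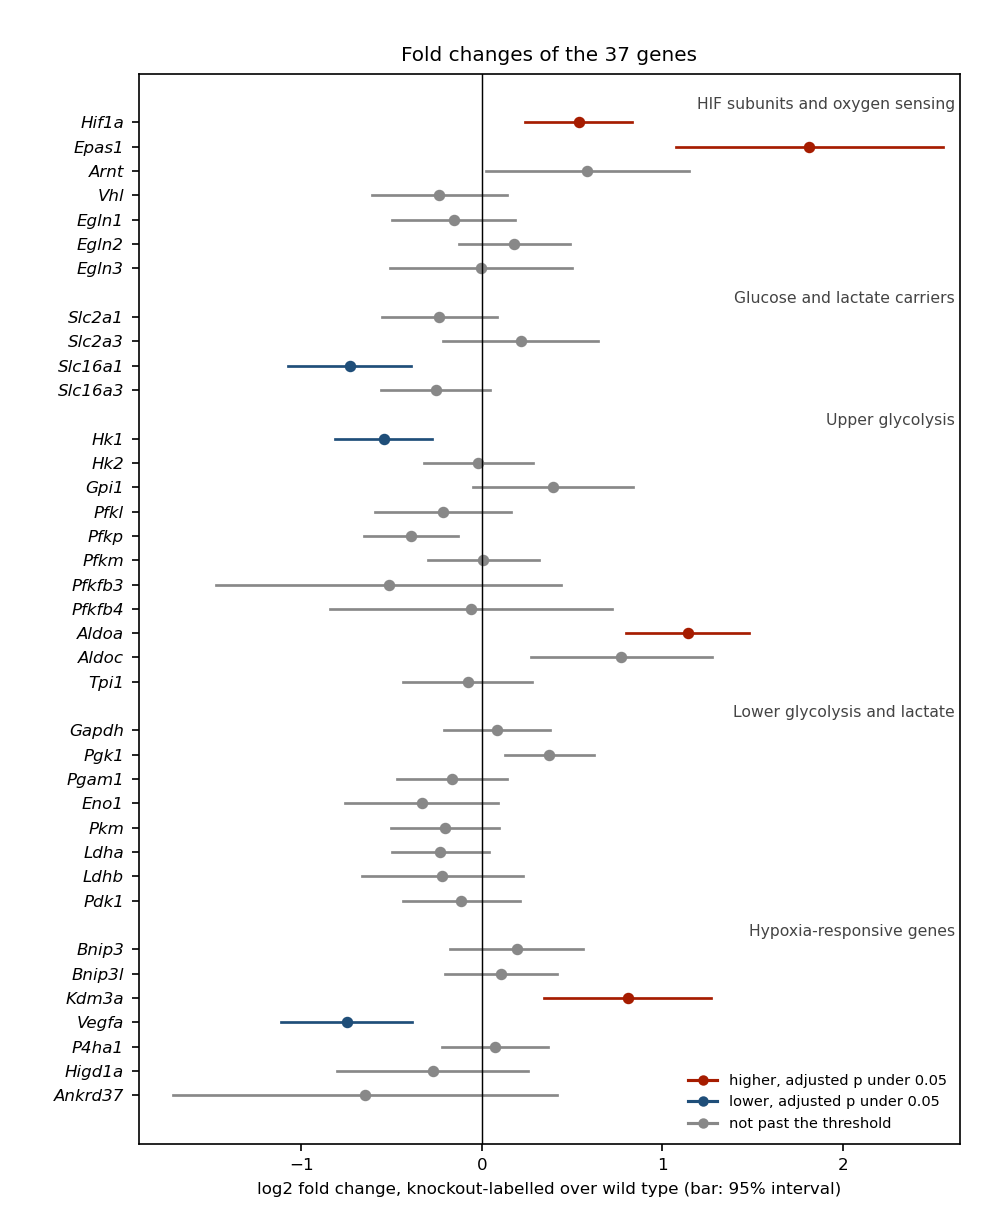
Log2 fold change of each of the 37 genes (knockout-labelled over wild type, horizontal axis) with its 95% interval, grouped by role, from 2 libraries a group. Red and blue mark the 4 genes that rose and the 3 that fell at an adjusted p under 0.05, and most grey intervals of the lower pathway cross 0.

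Both HIF alpha subunits rose, while the beta subunit Arnt, the prolyl hydroxylases and Vhl did not pass the test. Hif1a (ENSMUSG00000021109, chromosome 12, 73901375 to 73947530, GRCm38) measured 905 and 894 CPM for wild type 13 and 15, and 1426 and 1184 CPM for knockout-labelled 22 and 24. The groups did not overlap, and knockout-labelled 22 was the highest. The group means were 900 ± 7.96 and 1305 ± 171 CPM (SD, n = 2 each), a 1.45-fold rise (log2 fold change 0.54, SE 0.12, adjusted p = 0.044). Without wild type 13 the adjusted p was 0.216 and without wild type 15 it was 0.285, and with limma on log2(FPKM + 1) it was 0.0653.

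Epas1 (ENSMUSG00000024140, chromosome 17, 86753907 to 86833410), the second HIF alpha subunit, was rare in wild type at 3.80 and 4.03 CPM and rose to 17.5 CPM for knockout-labelled 22 and 10.1 CPM for knockout-labelled 24. Both knockout-labelled libraries thus lay well above both wild-type libraries, a 3.51-fold difference (log2 fold change 1.81, SE 0.31, adjusted p = 0.0238, and 0.0763 without wild type 13 or 0.0907 without wild type 15). On the deposited FPKM scale Hif1a was still the far more abundant subunit. Epas1 made up 0.547% and 0.586% of the summed FPKM of both in wild type and 1.58% and 1.10% in knockout-labelled 22 and 24. Arnt, the shared beta subunit, measured 64.4 and 65.3 CPM for wild type and 121 and 73.3 CPM for knockout-labelled 22 and 24. Its log2 fold change of 0.58 did not pass (adjusted p = 0.145), and knockout-labelled 24 lay near wild type. The log2 fold change was 0.90 without knockout-labelled 24 and 0.19 without 22.

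Among the prolyl hydroxylases, Egln1, the main sensor in most cells, had CPM of 95.7 and 94.5 in wild type and 77.9 and 92.8 in knockout-labelled 22 and 24 (log2 fold change -0.16, adjusted p = 0.481). Egln2 measured 51.2 and 48.6 CPM against 53.7 and 59.4 CPM (log2 fold change 0.18, adjusted p = 0.374). Egln3, which is itself a HIF target in many cells, measured 60.0 and 57.7 CPM for wild type and went opposite ways in the knockout-labelled pair, with 46.0 CPM in 22 and 71.3 CPM in 24 (adjusted p = 0.99). The sign of its fitted change turned with the scaling. Vhl, the substrate receptor of the HIF ubiquitin ligase, measured 33.5 and 31.3 CPM for wild type and 29.9 and 25.1 CPM in the knockout-labelled libraries (log2 fold change -0.24, adjusted p = 0.339).

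**Figure D2:**
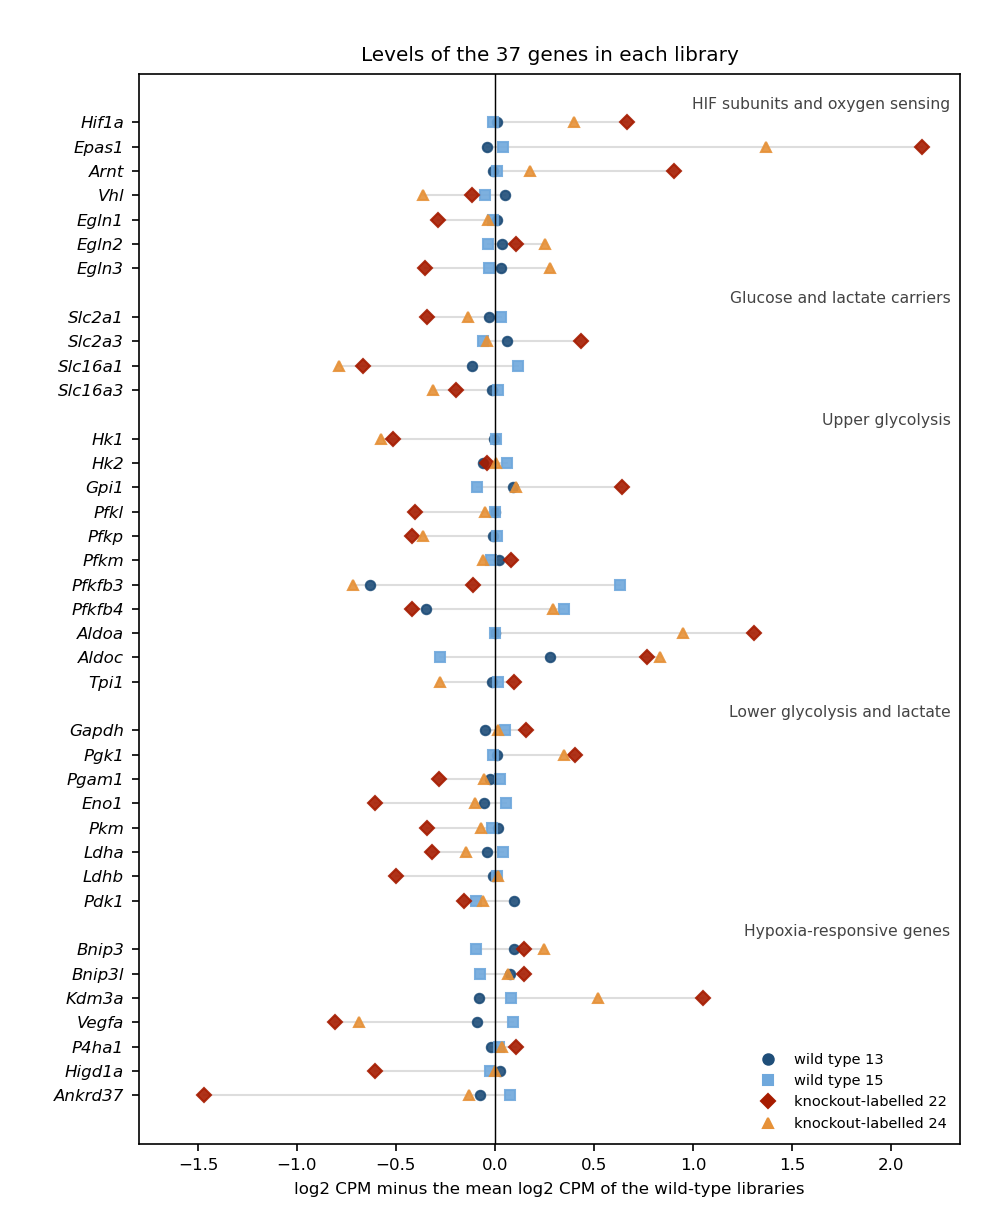
Level of each gene in the 4 libraries, as log2 CPM minus the mean log2 CPM of the wild-type libraries (vertical line at 0). Knockout-labelled 22 (dark red diamonds) lay farther from the wild-type mean than knockout-labelled 24 (orange triangles) for 28 of the 37 genes.

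The knockout-labelled libraries were unequal across the whole set. Knockout-labelled 22 lay farther from the wild-type mean than 24 for 28 of 37 genes (75.7%), where over all 13279 genes this was so for 62.1%. The median distance, in log2 units of CPM plus 0.5, was 0.399 for knockout-labelled 22 and 0.176 for 24 among the 37, and 0.365 and 0.279 over all genes. Both libraries lay on the same side of wild type for 30 of the 37, beside 10125 of all 13279 genes. The plot of levels by library shows this inequality most clearly for Arnt, Gpi1, Eno1, Ldhb, Higd1a and Ankrd37, which stood apart from wild type in 22 and close to it in 24.

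Carriers of glucose and lactate mostly had lower means, and 1 of 4 passed the test. Slc16a1, the monocarboxylate carrier MCT1 (ENSMUSG00000032902, chromosome 3, 104638668 to 104658462), measured 55.4 and 65.1 CPM for wild type and 37.8 and 34.8 CPM for knockout-labelled 22 and 24. All wild-type values exceeded all knockout-labelled values, and the gene fell by 0.73 on the log2 scale (SE 0.14, adjusted p = 0.0307). The adjusted p was 0.103 without wild type 13 and 0.267 without wild type 15. Slc16a3, the lactate exporter MCT4, measured 46.4 and 47.4 CPM against 40.9 and 37.7 CPM (log2 fold change -0.26, adjusted p = 0.215).

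Slc2a1, the glucose transporter GLUT1, measured 57.4 and 59.6 CPM for wild type and 46.2 and 53.3 CPM for knockout-labelled 22 and 24 (log2 fold change -0.23, 95% interval -0.55 to 0.09, adjusted p = 0.276). Slc2a3, the high-affinity transporter GLUT3, measured 49.2 and 45.3 CPM against 63.8 and 46.0 CPM (log2 fold change 0.22, adjusted p = 0.447). Its groups overlapped, and without knockout-labelled 22 the fitted change was -0.03.

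In upper glycolysis Aldoa rose and Hk1 fell. Aldoa (ENSMUSG00000030695, chromosome 7, 126795234 to 126800751), the main aldolase, which splits fructose bisphosphate, measured 497 CPM in each wild-type library, 1231 CPM for knockout-labelled 22 and 958 CPM in 24. Its group means of 497 ± 0.0828 and 1094 ± 193 CPM (SD, n = 2 each) differed 2.203-fold (log2 fold change 1.14, SE 0.14, adjusted p = 0.0135). It passed in 9 of 10 alternatives, and without wild type 15 its adjusted p was 0.0575. Aldoc, a second aldolase best known from brain, measured 23.7 and 16.1 CPM for wild type and 33.3 and 34.8 CPM in the knockout-labelled libraries, with a log2 fold change of 0.77 just outside the threshold (adjusted p = 0.0623, and 0.0183 with DESeq2).

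Hk1 (ENSMUSG00000037012, chromosome 10, 62268855 to 62379908), the hexokinase expressed in most cells, which traps glucose by phosphorylation, measured 239 and 241 CPM for wild type and 168 and 161 CPM for knockout-labelled 22 and 24. The replicates of each group lay close together, and the gene fell by 0.54 on the log2 scale (SE 0.11, adjusted p = 0.035, with 0.253 without wild type 13 and 0.317 without wild type 15). Hk2, the hexokinase that HIF and MYC induce in proliferating cells, measured 59.8 and 65.1 CPM against 60.8 and 62.6 CPM, and the 95% interval of its log2 fold change ran from -0.32 to 0.28.

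Of the phosphofructokinases, which carry out the committed step, Pfkp measured 360 and 364 CPM for wild type and 271 and 281 CPM in the knockout-labelled libraries. The groups did not overlap and its log2 fold change was -0.39 (SE 0.11), just outside the threshold (adjusted p = 0.0649, and 0.0493 with scaling by library totals). Pfkl measured 82.0 and 82.2 CPM against 62.1 and 79.4 CPM (adjusted p = 0.385), and Pfkm 41.98 and 40.9 CPM against 43.8 and 39.7 CPM (adjusted p = 0.967). Reads of Pfkp may in part belong to Pitrm1, which overlaps its end on the opposite strand and held 897 to 1117 counts per library. Pfkm likewise overlaps Senp1 on the opposite strand, which held 1715 to 2886 counts per library.

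The other upper enzymes did not pass. Gpi1, glucose-6-phosphate isomerase, measured 545 and 481 CPM for wild type and 798 and 552 CPM for knockout-labelled 22 and 24 (log2 fold change 0.40, adjusted p = 0.197). Its log2 fold change was 0.64 without knockout-labelled 24 and 0.12 without 22. Its annotated copy Gm1840, 98.7% identical over 1046 bases, measured 45.2 and 42.5 CPM against 75.2 and 64.5 CPM. Tpi1, triosephosphate isomerase, measured 261 and 268 CPM against 283 and 218 CPM (adjusted p = 0.749). Pfkfb3 and Pfkfb4, which set the level of the phosphofructokinase activator fructose 2,6-bisphosphate, varied widely within groups. Pfkfb3 measured 37.8 and 90.6 CPM in the wild-type libraries and 54.3 and 35.6 CPM in 22 and 24 (adjusted p = 0.412), and Pfkfb4 8.15 and 13.2 CPM against 7.76 and 12.7 CPM (adjusted p = 0.918). The fitted change of Pfkfb3 was 0.25 without wild type 15 and -1.01 at the other extreme of leaving out 1 library.

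**Figure D3:**
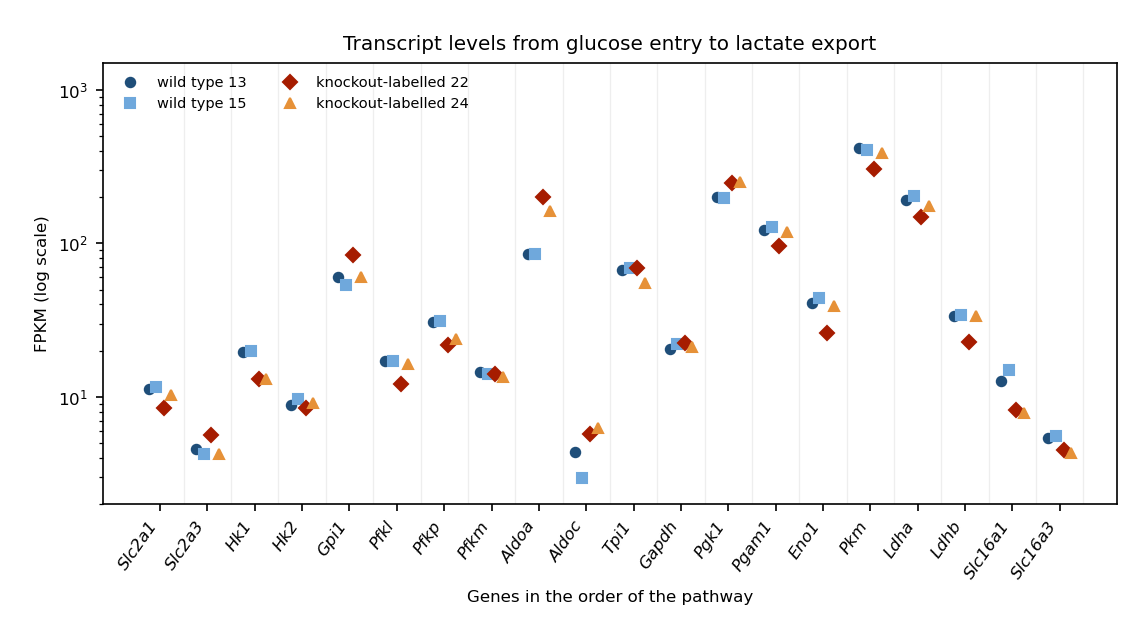
FPKM (log axis) of the carriers and enzymes in the order of the pathway, with 1 symbol per library. Pkm had the highest FPKM in every library. Aldoa moved from 85.7 FPKM on average to 181 FPKM in the knockout-labelled libraries, beside 161.5 FPKM for Ldha. The order between genes depends on the gene lengths behind the FPKM.

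None of the 8 genes of lower glycolysis and pyruvate fate passed the test, although 6 of the 8 fitted values lay below 0. Pgk1, phosphoglycerate kinase, lay above 0, with 605 and 595 CPM for wild type and 793 and 763 CPM in the knockout-labelled libraries (log2 fold change 0.37, SE 0.10, adjusted p = 0.064). Its log2 fold change was 0.36 without knockout-labelled 22 and 0.40 without 24. Gapdh, glyceraldehyde-3-phosphate dehydrogenase, measured 174 and 186 CPM against 200.4 and 182 CPM (adjusted p = 0.665). It overlaps Iffo1 on the opposite strand, which held 527 to 1014 counts per library.

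Pkm, pyruvate kinase, measured 1064 and 1042 CPM for wild type and 829 and 1001 CPM for knockout-labelled 22 and 24 (log2 fold change -0.20, adjusted p = 0.307). Ldha, which makes lactate, measured 862 and 911 CPM against 712 and 799 CPM (log2 fold change -0.23, adjusted p = 0.212), and Ldhb, the isozyme that favours the reverse reaction, 65.2 and 66.1 CPM against 46.4 and 66.4 CPM (adjusted p = 0.456). Pgam1, phosphoglycerate mutase, measured 220.3 and 228 CPM against 184 and 216 CPM (adjusted p = 0.408). In these 4 genes knockout-labelled 22 was the lowest library. Without knockout-labelled 24 their log2 fold changes were -0.35, -0.32, -0.50 and -0.29, in the order given. Without knockout-labelled 22 they were -0.06, -0.14, 0.03 and -0.04.

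Eno1, the enolase of most cells, behaved likewise, with 315 and 340 CPM for wild type, 215 CPM for knockout-labelled 22 and 305 CPM in 24 (log2 fold change -0.33, adjusted p = 0.248). Its log2 fold change was -0.61 without knockout-labelled 24 and -0.09 without 22. Its copy Eno1b is 99.5% identical over 1736 bases, so reads may be shared between them, and it measured 106 and 112 CPM against 69.9 and 84.1 CPM. Summed, the pair measured 422 and 451 CPM for wild type and 285 and 389 CPM in the knockout-labelled libraries. Pgam1-ps2, identical to Pgam1 over 765 bases, held 21.7 to 26.2 CPM. Pdk1, the kinase that holds pyruvate back from the mitochondria and a known HIF target, measured 116 and 101 CPM against 97.4 and 104 CPM (log2 fold change -0.11, adjusted p = 0.6).

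Summed over the 16 enzymes from hexokinase to lactate dehydrogenase, the level was 5415 and 5422 CPM for wild type and 5930 and 5719 CPM for knockout-labelled 22 and 24. Without Aldoa the sums were 4918 and 4925 CPM against 4699 and 4761 CPM. The knockout-labelled sums were the higher ones with Aldoa and the lower ones without it. On the FPKM scale the sums were 1336 and 1343 in wild type against 1298 and 1381, where the groups overlapped. Without Aldoa they were 1250.0 and 1257 FPKM against 1098 and 1219 FPKM, where the knockout-labelled libraries were both lower.

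By the deposited FPKM, Pkm stood first in wild type at 413 ± 5.28 FPKM (SD, n = 2). Next came Pgk1 at 200.5 ± 1.89, Ldha at 197 ± 8.08, Hif1a at 132 ± 0.875, Pgam1 at 125 ± 3.43 and Aldoa at 85.7 ± 0.176 FPKM. Pgk1 and Ldha did not differ beyond their spread. In the knockout-labelled libraries Aldoa, at 200 and 162 FPKM, lay above Ldha, at 149 and 174 FPKM, in 22 and below it in 24. At the low end in wild type were Epas1 (0.751 ± 0.0322 FPKM), Pfkfb4 (1.26 ± 0.426) and Ankrd37 (1.51 ± 0.115). Gapdh stood 14th of the 37 by this measure, at 21.3 ± 1.07 FPKM. Annotated copies with at least 95% identity held 0.491% to 1.28% of the joint counts. In wild type 13 Gapdh had 2838 counts at 20.5 FPKM, and Pgam1 had 3594 counts at 122 FPKM. Their longest coding transcripts hold 1420 and 1775 bases. The lengths behind the deposited FPKM are therefore not all those of such transcripts, and the order between genes depends on them.

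Isozyme use was compared as the share of 1 member in the summed FPKM of its family, for 10 families. The level of such a share depends on the gene lengths behind the FPKM. By counts in wild type 13, Hk2 held 976 beside 3893 for Hk1, and Slc16a3 held 757 beside 904 for Slc16a1. Hk2 made up 31.2% and 32.8% of the hexokinase pair in wild type and 39.5% and 41.2% in knockout-labelled 22 and 24, a difference of 8.40 percentage points. Slc16a3 made up 29.7% and 26.9% of the lactate carriers against 35.4% in each knockout-labelled library. Pfkp made up 49.4% and 49.9% of the phosphofructokinases against 45.3% and 44.3%. These 3 shares, with those of Slc2a3 and Epas1, did not overlap between groups. An exact two-sided permutation test with 2 libraries a group cannot give a p below 0.333, and these 5 shares gave that value (adjusted p = 0.666 over the 10 shares).

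**Figure D4:**
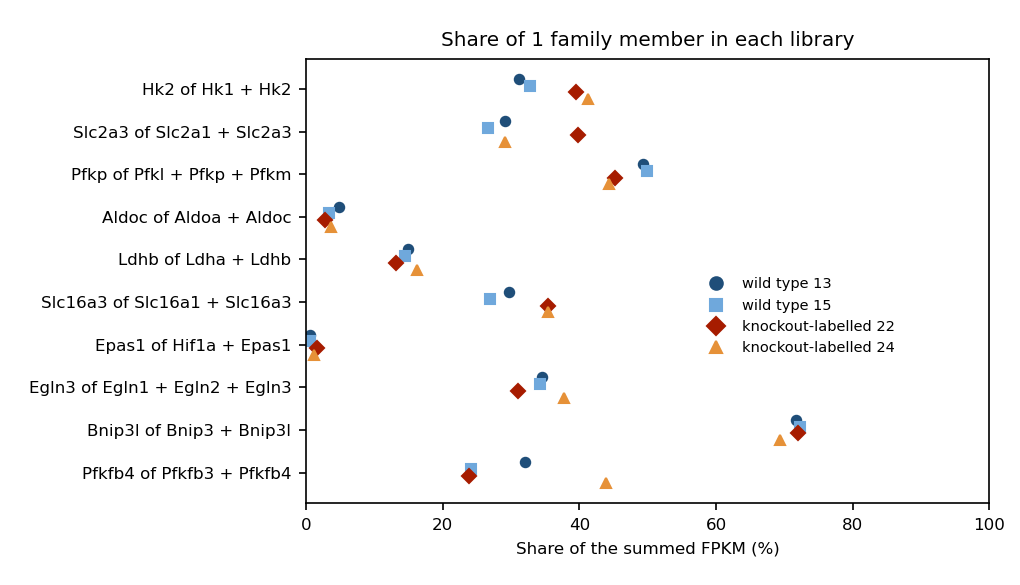
Share of 1 gene in the summed FPKM of its family (horizontal axis, percent) for each library. The shares of Hk2 and Slc16a3 lay higher, and that of Pfkp lower, in both knockout-labelled libraries than in both wild-type libraries, while those of Ldhb and Egln3 overlapped.

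The other 5 shares overlapped. Ldhb made up 15.0% and 14.5% of the lactate dehydrogenases in wild type and 13.2% and 16.2% in the knockout-labelled libraries, with equal means of 14.7%. Egln3 made up 34.6% and 34.3% of the prolyl hydroxylases against 31.1% and 37.7%. Aldoc made up 4.84% and 3.34% of the aldolases against 2.81% and 3.73%, and Bnip3l made up 71.7% and 72.3% of its pair against 71.95% and 69.4%. The share of Pfkfb4 ranged from 23.9% to 43.9% within the knockout-labelled pair alone.

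Among the 7 hypoxia-responsive genes, 1 rose and 1 fell. Kdm3a (ENSMUSG00000053470, chromosome 6, 71588972 to 71632990), a demethylase of lysine 9 of histone H3, measured 98.9 and 111 CPM for wild type, 217 CPM for knockout-labelled 22 and 150 CPM in 24. The groups did not overlap and the rise was 1.75-fold (log2 fold change 0.81, SE 0.19, adjusted p = 0.048). It lay close to the threshold, with adjusted p of 0.22 without wild type 13, 0.188 without wild type 15 and 0.078 with limma on log2(FPKM + 1), and the log2 fold change was 0.53 without knockout-labelled 22.

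Vegfa (ENSMUSG00000023951, chromosome 17, 46016993 to 46032377), the vascular growth factor and a textbook HIF target, moved the other way, from 35.4 and 40.3 CPM for wild type to 21.6 and 23.5 CPM in the knockout-labelled libraries. It fell by 0.75 on the log2 scale (SE 0.15, adjusted p = 0.0332, with 0.133 without wild type 13, 0.287 without wild type 15 and 0.0626 with limma on log2(FPKM + 1)). The groups did not overlap, and the libraries of each group lay close together.

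The remaining 5 did not pass. Bnip3, a receptor for the removal of mitochondria, measured 27.4 and 23.9 CPM against 28.4 and 30.4 CPM (adjusted p = 0.422), and its relative Bnip3l 112 and 101 CPM against 118 and 112 CPM (adjusted p = 0.611). Reads of Bnip3l may be shared with the copy Bnip3l-ps, 99.2% identical over 663 bases, which held 29.4% to 35.9% of their joint counts. P4ha1, a collagen prolyl hydroxylase, measured 102 and 105 CPM against 111 and 106 CPM (log2 fold change 0.07, 95% interval -0.22 to 0.37). Higd1a, a mitochondrial hypoxia protein, measured 27.0 and 26.2 CPM against 17.5 and 26.6 CPM (adjusted p = 0.434). Ankrd37, a small ankyrin-repeat gene induced in hypoxia, measured 4.045 and 4.495 CPM for wild type, 1.54 CPM for knockout-labelled 22 and 3.89 CPM in 24 (adjusted p = 0.358), and it overlaps Ufsp2 on the opposite strand. Without knockout-labelled 24 the log2 fold changes of Higd1a and Ankrd37 were -0.61 and -1.47, and without 22 they were 0.01 and -0.12.

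The pathway was widened by 6 lists of genes outside the 37, of which 104 genes were in the table and 92 were tested. Of these 92, 6 rose and 5 fell, where 10.1% of all genes were called. The list of other hypoxia targets had 5 higher and 1 lower of 22 tested and a median log2 fold change of 0.35, beside -0.0013 for all genes. The lists were chosen with earlier results of these data known, so these values do not test a hypoxia response. Mxi1, a MAX partner that opposes MYC, measured 65.8 and 65.9 CPM for wild type and 167 and 119 CPM for knockout-labelled 22 and 24 (adjusted p = 0.0223). Ndrg1, a stress-induced gene, rose from 63.1 and 63.3 CPM to 146 and 119 CPM (adjusted p = 0.0165). Hilpda, a lipid droplet protein, rose from 9.99 and 10.1 CPM to 24.2 and 25.3 CPM (adjusted p = 0.0141).

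Rora, which also acts in T helper 17 cells, had 89.1 and 83.7 CPM in the wild-type libraries, 366 CPM in knockout-labelled 22 and 167 CPM in 24. The groups did not overlap, but 22 lay far above 24, and the 3.08-fold rise (adjusted p = 0.0348) did not pass with limma on log2(FPKM + 1). Bhlhe40, which acts in the same cells, rose 1.72-fold, from 443 and 434 CPM to 854 and 652 CPM (adjusted p = 0.0299). Stc2, a secreted glycoprotein, fell from 7.35 and 10.6 CPM to 1.07 and 2.617 CPM (adjusted p = 0.0291). None of the 5 rises passed without wild type 13 (adjusted p of 0.0707 to 0.133) or without wild type 15 (0.0909 to 0.177), and Stc2 lost its call without wild type 15 (adjusted p = 0.122).

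**Figure D5:**
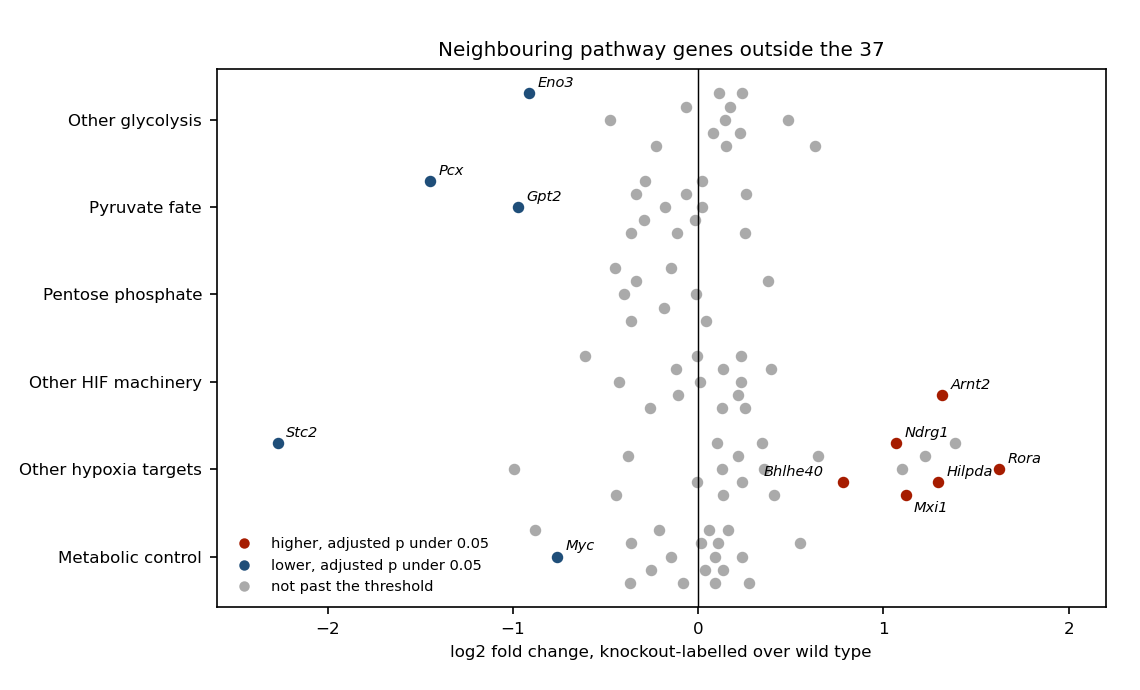
Log2 fold change of the 92 tested genes in the 6 lists outside the 37, 1 point per gene, spread vertically for legibility. Named points passed an adjusted p of 0.05. The 5 named hypoxia targets that rose lie to the right, while Stc2, Pcx, Gpt2, Eno3 and Myc lie to the left.

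Of 15 tested genes of the other HIF machinery, Arnt2, a relative of Arnt, rose from 5.94 and 5.37 CPM to 14.1 and 14.2 CPM (log2 fold change 1.32, adjusted p = 0.0183) and none fell. Of 13 tested genes among the other glycolytic genes Eno3, the enolase of muscle, fell from 73.0 and 70.8 CPM to 29.9 and 46.5 CPM (adjusted p = 0.0448). Eno3 lost its call without wild type 13 (adjusted p = 0.14) or 15 (0.157), and so did Arnt2 (0.0786 and 0.128).

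Pyruvate handling gave 2 lower and none higher of 14. Pcx, pyruvate carboxylase, which feeds the citric acid cycle, fell from 25.4 and 23.5 CPM to 8.50 and 9.45 CPM (log2 fold change -1.45, SE 0.18, adjusted p = 0.0135) and stayed past the threshold in all 10 alternatives, with a highest adjusted p of 0.0488. Gpt2, the mitochondrial alanine aminotransferase, fell from 20.04 and 25.8 CPM to 12.05 and 11.3 CPM (adjusted p = 0.0327, with 0.0795 without wild type 13 and 0.245 without wild type 15). None of the 9 pentose phosphate genes passed, with 7 fitted values below 0. Among 19 regulators of T cell metabolism only Myc, which drives glycolytic genes in activated T cells, passed, with 56.0 and 60.8 CPM for wild type and 30.4 and 38.4 CPM for knockout-labelled 22 and 24 (log2 fold change -0.76, adjusted p = 0.0337, with 0.131 without wild type 13 and 0.228 without wild type 15).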

How the data were processed

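RNA was isolated with TRIzol and read on a HiSeq instrument, per the labels' protocols, and no source names the strand or the counting options. Per the submitters' processing notes, the authors used Bowtie2 and RSEM with GRCm38.p6 (mm10). The deposited table holds whole-number counts, which may be rounded estimates, and FPKM values computed by the authors. Without strand, reads of overlapping genes on opposite strands cannot be told apart.

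Counts were tested with edgeR 4.0.16 in R 4.3.3 (filterByExpr with a minimum count of 10 and minimum total of 15, TMM scaling, glmQLFit and glmQLFTest, two-sided, no covariate), with Benjamini-Hochberg adjustment over 13279 genes. The standard error is the log2 fold change over the square root of F, and CPM are TMM-scaled. Groups came from the genotype labels and share no replicate numbers. Replicates differed by more than counting noise (chi-square per degree of freedom 9.33 and 28.5). The 37 genes and the 6 added lists were chosen with earlier results of these data known. Every one of the 37 is named, and of the added lists only those past the threshold, with Setd2, Foxp3 and cell type markers as checks. Alternatives were RLE or total-count scaling, other filters, DESeq2 1.42.0, limma 3.58.1 on log2(FPKM + 1), and leaving out each library. The test was tried on simulated counts with known changes. Copies were found with blastn 2.17.0 among GENCODE M21 transcripts (at least 95% identity over 200 bases).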

Additional observations from a re-analysis of the deposited data

How the results depend on the processing

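Of 370 values for the 37 genes (10 alternatives each), 318 kept their direction and side of the threshold, 16 lost a call, 19 gained one and 17 changed sign, and the cause was not tested. No paired analysis was possible because the groups share no replicate numbers. Without a filter on low counts 1261 genes were called higher and 1088 lower, in place of 734 and 610, and 10 genes of the added lists were higher. With limma on log2(FPKM + 1) 445 genes were higher, with 2 of the 37 higher and 3 of the added lists lower. Among the added lists, Eno3, Gpt2, Rora and Myc lost their calls with limma. Leaving out 1 library, the calls over all genes ranged from 91 to 2126 higher and from 46 to 1975 lower, those among the 37 from 0 to 8 higher and 0 to 12 lower, and those in the added lists from 0 to 15 higher and 1 to 15 lower. With a library left out, the lone library of its group is assumed to vary like the other group. Scaling by library totals moved the median log2 fold change of all genes to -0.058 and gave 674 higher and 771 lower.

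Genes whose fitted log2 fold change turned sign lay near 0 or differed between libraries of a group. Egln3 came to 0.002741 with RLE and 0.002646 with DESeq2 scaling, and Pfkm to -0.04904 with library totals and -0.04638 with limma. Leaving out 1 library gave ranges of -0.3559 to 0.2908 for Egln3, -0.02614 to 0.4306 for Slc2a3, -0.07768 to 0.04377 for Hk2, -0.04823 to 0.07642 for Pfkm and -1.013 to 0.2478 for Pfkfb3. It gave -0.4585 to 0.3287 for Pfkfb4, -0.2642 to 0.09468 for Tpi1, -0.501 to 0.03162 for Ldhb and -0.6084 to 0.01162 for Higd1a. For the isozyme shares, the difference is knockout-labelled minus wild type, in percentage points. Computed from counts it was 0.001721 for Ldhb and 0.04781 for Egln3, beside -0.01056 and -0.0437 from FPKM. Leaving out 1 library gave -1.528 to 1.506 for Ldhb, -3.346 to 3.258 for Egln3 and -4.284 to 15.76 for Pfkfb4. With 2 libraries a group the spread is poorly known, and low counts, as for Ankrd37 (23 to 67 per library), limit precision further.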
